A study of Mus musculus with 28 samples.

Results

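Occupancy of the glucocorticoid receptor (GR) was measured by ChIP-seq in mouse bone marrow-derived macrophages treated with dexamethasone (Dex), against vehicle-treated macrophages. The 8 libraries described here, 4 Dex and 4 vehicle, were chosen from 28 samples by antibody and treatment, and all 8394 deposited GR peaks were considered, of which 2753 had enough reads to be tested. A peak could pass this filter on the reads of a single group, so peaks with reads almost only in Dex cells were among them. Both groups were primary macrophages of C57BL/6 background, grown from the marrow of male mice of 8 to 10 weeks and differentiated for 5 days in medium with L-cell conditioned medium. Dex cells received 100 nM Dex, a synthetic glucocorticoid, for 24 h, and vehicle cells were labelled vehicle at 24 h, with no agent named. Replicates 1 and 2 of each group were labelled batch 1 and replicates 3 and 4 batch 2. The other libraries of the series covered GR after corticosterone or IL4, and H3K27ac, the acetylated histone mark found at enhancers and promoters in use. The labels do not say whether replicates came from separate mice, so p-values measure the spread between these libraries only. In bulk chromatin, more receptor at a site in each cell and more cells with receptor at that site cannot be told apart.

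GR is a nuclear receptor that is held in the cytoplasm by HSP90 chaperones until it binds a glucocorticoid, after which it enters the nucleus. There it binds DNA mostly as a dimer at glucocorticoid response elements (GREs), inverted repeats of a short half-site separated by a spacer, and recruits coactivators that acetylate histones. In macrophages the receptor is known for raising genes of feedback, metabolism and clearance of dying cells and for lowering inflammatory genes, often from enhancers far from the genes they act on and at sites shared with lineage factors such as PU.1 and C/EBP proteins.

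The DNA under GR peaks could be read only where a peak overlapped a RefSeq promoter window (GRCm38.p6, the build called mm10; 250 bases before a gene start to 50 after it). Of the 953 peaks that rose with Dex, 38 overlapped 43 such windows. GRE letters, written as GNACA, any 3 bases, then TGTNC (the pattern reads the same on both strands), were in 4 of these 43 windows (9.30%), against 0.475% of all 32851 windows. They were in 0 of 8 windows under peaks that fell and 0 of 25 windows under the other tested peaks. The windows of Slc10a6, which encodes a transporter of steroid sulphates, Map3k6, a stress-kinase gene, and Mt1, a metal-binding metallothionein gene, held the letters, and are shown because receptor occupancy at each rose with Dex. The C1qb window, of a subunit of complement C1q, held only a single half-site (AGAACA or TGTTCT). Capitals mark the matched letters, and each sequence runs 5′ to 3′ along the gene's own strand.
Slc10a6 promoter, chr5:103629354-103629653, minus strand: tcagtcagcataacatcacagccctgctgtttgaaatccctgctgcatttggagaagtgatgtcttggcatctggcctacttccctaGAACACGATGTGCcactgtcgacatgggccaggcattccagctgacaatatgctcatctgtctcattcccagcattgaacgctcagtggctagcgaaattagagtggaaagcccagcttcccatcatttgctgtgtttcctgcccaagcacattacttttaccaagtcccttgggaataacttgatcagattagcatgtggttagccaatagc
Map3k6 promoter, chr4:133240568-133240867, plus strand: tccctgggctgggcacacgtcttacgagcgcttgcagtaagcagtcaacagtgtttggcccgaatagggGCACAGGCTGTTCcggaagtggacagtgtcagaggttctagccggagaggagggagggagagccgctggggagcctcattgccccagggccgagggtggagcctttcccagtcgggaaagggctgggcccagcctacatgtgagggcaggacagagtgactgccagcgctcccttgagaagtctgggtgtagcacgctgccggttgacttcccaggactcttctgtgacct
Mt1 promoter, chr8:94178839-94179138, plus strand: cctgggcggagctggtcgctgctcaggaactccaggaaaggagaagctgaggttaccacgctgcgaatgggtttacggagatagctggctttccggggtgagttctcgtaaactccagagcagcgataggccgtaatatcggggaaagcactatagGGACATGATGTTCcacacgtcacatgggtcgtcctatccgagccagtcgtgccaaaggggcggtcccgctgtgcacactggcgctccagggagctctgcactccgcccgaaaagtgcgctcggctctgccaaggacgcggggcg
C1qb promoter, chr4:136886151-136886450, minus strand: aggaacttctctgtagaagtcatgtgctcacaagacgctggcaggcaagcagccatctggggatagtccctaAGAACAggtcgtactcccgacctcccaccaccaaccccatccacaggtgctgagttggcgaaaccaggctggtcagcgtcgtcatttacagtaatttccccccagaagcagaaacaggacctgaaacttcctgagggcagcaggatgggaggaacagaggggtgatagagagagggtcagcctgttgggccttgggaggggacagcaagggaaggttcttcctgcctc

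At the Slc10a6 promoter the peak held 109, 90, 69 and 117 reads in the 4 Dex libraries, against 6, 6, 14 and 4 reads in the 4 vehicle libraries. Every Dex library lay far above every vehicle library there, and the log2 fold change, Dex over vehicle, was 2.95 ± 0.38 (SE; adjusted p = 1.35e-12). The matched letters, GAACACGATGTGC, began 163 bases before the annotated start. At Map3k6, where GCACAGGCTGTTC began 181 bases before the start, the counts were 100, 75, 68 and 84 in Dex cells and 6, 9, 9 and 8 in vehicle cells, and the log2 fold change was 2.58 ± 0.37 (adjusted p = 3.25e-10). Mt1 changed less. Its peak held 34, 37, 32 and 53 reads in Dex cells and 10, 12, 17 and 7 reads in vehicle cells, with the match GGACATGATGTTC 94 bases before the start and a log2 fold change of 1.01 ± 0.35 (adjusted p = 0.0086). The remaining window with GRE letters, that of A230028O05Rik, carried GAACAGAATGTAC 247 bases before its start, under a peak with a log2 fold change of 1.92 ± 0.36 (adjusted p = 1.56e-06). Half-site letters were in 12 of the 43 windows (27.9%), against 19.0% of all windows and 5 of the 25 windows under other tested peaks, and can lie within GRE letters. AP-1 letters, TGANTCA on either strand, were in 7 of 43 (16.3%), against 7.81% of all windows and 8 of the 25 under other tested peaks. C/EBP letters, TTGCNNAA or TTNNGCAA, were in 4 of 43 (9.30%), against 10.8% and 3 of 25. PU.1 letters, GAGGAAGT on either strand, were in 8 of 43 (18.6%), against 3.20% and 5 of 25. The AP-1 and PU.1 letters were thus about as common or more common in windows overlapping tested peaks that TMM called in neither direction. Some of those peaks were higher with total-count scaling only. Whole windows were searched, so counted letters need not lie within the peak. These windows cover few of the peaks, most of which lay away from gene starts.

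Reads counted in GR peaks numbered 1185798 to 1904442 per library in Dex cells and 900063 to 1981582 in vehicle cells. Most of them fell on 84 peaks, the 1% with the most reads over all 15 GR libraries, which took 88.0% to 92.6% of the reads in Dex libraries and 92.0% to 96.2% in vehicle libraries. A single peak at chr2:98666249-98667322, more than 1 Mb from a named gene, held 52.7% to 57.0% of each Dex library and 55.0% to 59.2% of each vehicle library. The remaining peaks shared 105766 to 145518 reads per Dex library and 55958 to 110335 per vehicle library. H3K27ac peaks lay at 16 of 17 macrophage identity genes (all but Cd68), with a median of 19.7 CPM (reads per megaread in peaks) per kb at the highest peak of each gene. They lay at 4 of 8 neutrophil genes (median 4.58; none at Ly6g or Mpo), 3 of 9 lymphoid genes (5.46; none at Cd3e), 0 of 5 mast cell and basophil genes, 1 of 7 fibroblast genes (14.8; none at Col1a1), 5 of 6 dendritic cell genes (12.3), 2 of 6 erythroid and megakaryocyte genes (13.0, the higher at 20.2; none at Gata1) and 4 of 6 osteoclast genes (9.66).

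Receptor occupancy rose at many tested peaks with Dex, and the number of falls depended on the scaling. With TMM scaling, which takes most peaks as unchanged, 953 of 2753 tested peaks were higher with Dex (34.6%) and 726 were lower (26.4%), by edgeR's quasi-likelihood F test with batch as a covariate at a Benjamini-Hochberg adjusted p under 0.05. When each library was instead scaled to its total count in peaks, 1267 peaks were higher (46.0%) and 31 lower (1.13%). All 953 peaks higher by TMM were also higher by total count, and 314 more were higher by total count alone. Every one of the 31 peaks lower by total count was lower by TMM, while 695 of the 726 lower by TMM were not called lower by total count. The median log2 fold change over all tested peaks was 0.16 with TMM and 0.91 with total count, a shift that applies to every value below. TMM factors were 1.20 to 1.45 in Dex libraries and 0.48 to 0.93 in vehicle libraries, the lowest being vehicle replicate 4. Median-of-ratios scaling, which is set by the bulk of peaks too, called 606 peaks higher and 1163 lower. With no count filter, TMM called 1117 higher and 645 lower, so the shares given for tested peaks hold for the filtered set only. In 803 of the 953 higher peaks, every Dex library lay above every vehicle library, and in 879 this held within each batch. Across every scaling, count filter and test tried, 499 peaks were called higher each time. The peak nearest the threshold on its inner side was at Zfyve28 (log2 0.81 ± 0.37, adjusted p = 0.0492), and the next outside it had a log2 fold change of 0.76 ± 0.35 (adjusted p = 0.0503).

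**Figure D1:**
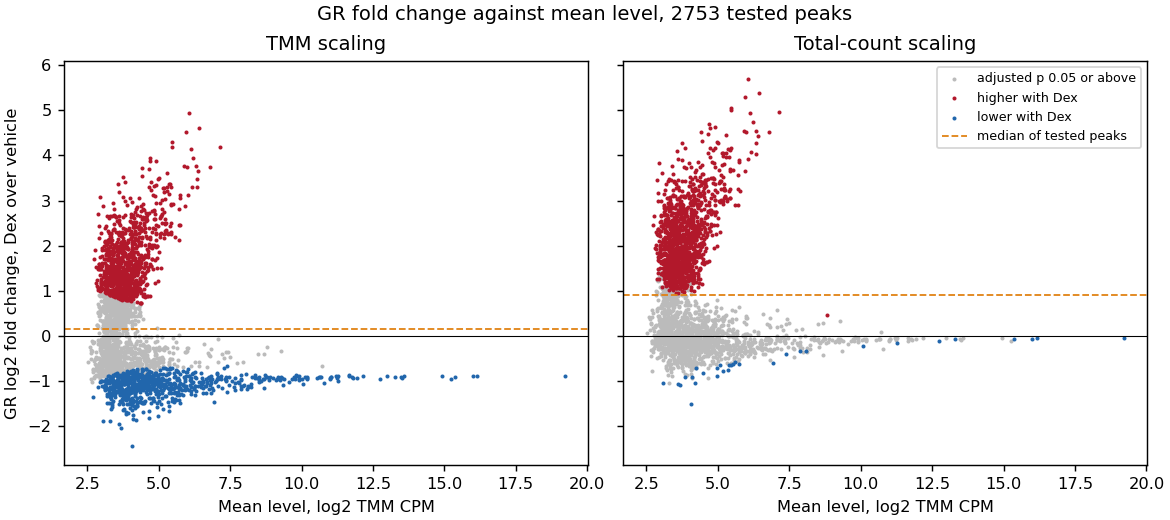
GR log2 fold change, Dex over vehicle, against mean level in log2 CPM for the 2753 tested peaks, with TMM scaling (left) and total-count scaling (right); red and blue points passed an adjusted p of 0.05 and the dashed line is the median of tested peaks. The peaks with the highest levels form a narrow band, with a median of -0.92 with TMM and -0.09 with total count, while the red points above 0 are present under both.

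The peaks with the most reads stood apart from the rest. All 84 of the 1% were tested, and their median log2 fold change was -0.92 with TMM, with 80 called lower, and -0.09 with total count, with 8 called lower and 1 higher. The largest, at chr2:98666249-98667322, had a log2 fold change of -0.89 ± 0.27 with TMM (adjusted p = 0.00275) and -0.05 with total count. The next 3 by reads, at chr14:19415724-19419680, chr2:98662242-98662980 and chr12:3109845-3110150, had TMM values of -0.90, -0.90 and -0.91 and total-count values of -0.05, -0.06 and -0.07. The fifth, in Chl1, a neural adhesion gene, had -0.96 and -0.11, and its total-count value did not pass (adjusted p = 0.246).

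A larger share of receptor reads lay in acetylated chromatin after Dex. Peaks that overlapped an H3K27ac peak, the 84 left out, held 7.70%, 8.59%, 5.54% and 5.05% of the reads in the 4 Dex libraries, against 3.30%, 4.21%, 2.67% and 1.28% in the 4 vehicle libraries. The groups did not overlap, with means of 6.72% ± 1.70 in Dex cells and 2.87% ± 1.23 in vehicle cells (SD, n = 4 each; 2-sided exact permutation p = 0.0286, the smallest that 4 against 4 allows; this test was chosen after the data were seen). The permutations ignored batch. Moving libraries only within their batch allows fewer arrangements and could not give a p this small. Within batch 1 the means were 8.15% in Dex cells and 3.76% in vehicle cells. Within batch 2 they were 5.30% in Dex cells and 1.98% in vehicle cells. Peaks outside H3K27ac held 2.85% ± 0.47 of the reads in Dex cells and 3.04% ± 0.50 in vehicle cells, a difference within the spread of the libraries (exact permutation p = 0.629). These shares need no scaling factor, although a share depends on what the other peaks do.

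**Figure D2:**
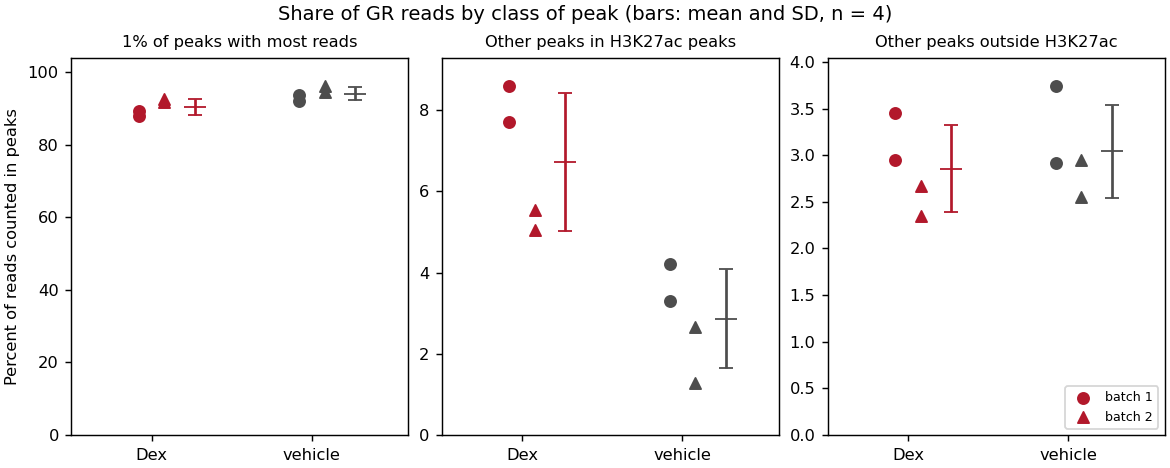
Percent of reads in GR peaks that fell on the 84 peaks with the most reads (left), on the other peaks in H3K27ac peaks (middle) and on the other peaks outside them (right); points are libraries of batch 1 (circles) and batch 2 (triangles), bars the mean and SD of 4 libraries. In the middle panel the Dex libraries lie between 5.05% and 8.59% and the vehicle libraries between 1.28% and 4.21%.

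The same split appeared peak by peak. Of the 1871 tested GR peaks inside an H3K27ac peak, 934 rose with Dex, 143 fell by TMM and 3 fell by total count, and their median log2 fold change was 0.85 with TMM and 1.60 with total count. Among the 882 tested peaks outside, 19 rose, 583 fell by TMM and 28 fell by total count, with medians of -0.94 and -0.14. Of the 953 peaks that rose, 98.0% lay in an H3K27ac peak, against 68.0% of all tested peaks and 19.7% of the 726 that fell by TMM. Risen peaks were longer, with a median of 299 bp, against 153 bp for those that fell by TMM. Peaks inside genes rose in 445 of 1074 cases (41.4%), peaks outside genes in 453 of 1367 (33.1%), and peaks within 1 kb of a gene end in 55 of 312 (17.6%). Within H3K27ac peaks the shares that rose were 51.1% inside genes, 55.2% outside genes and 25.6% near gene ends. One H3K27ac peak list covered all treatments of the study, so a peak in it may come from any of them. The peaks that rose had 698 different nearest genes. Of those genes 95 had 2 or more such peaks, and 7 genes, Anapc16, Armc12, Frmd4b, Irf2, Lrp1, Ninj2 and Zbtb16, had 4.

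**Figure D3:**
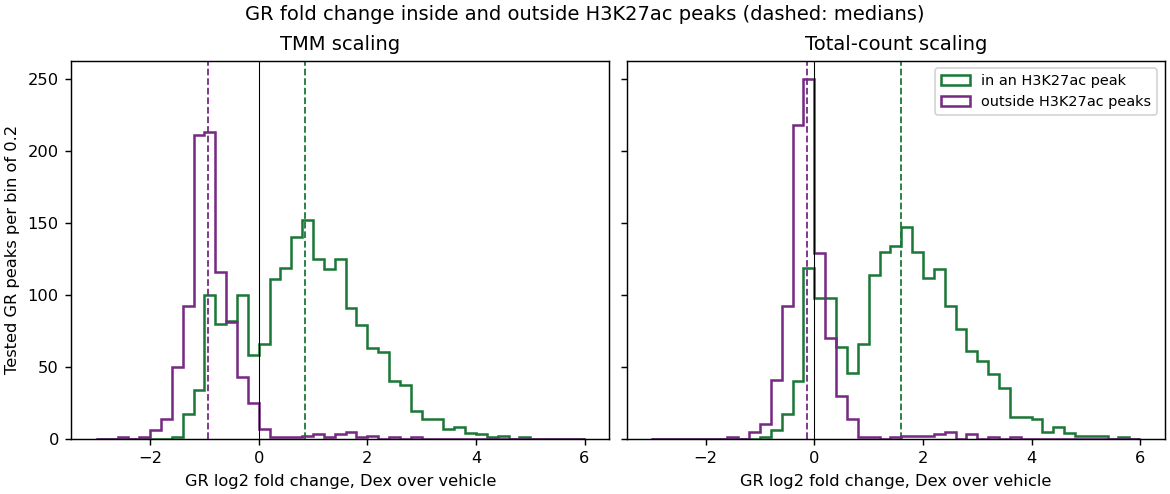
Histogram of the GR log2 fold change, Dex over vehicle, in bins of 0.2, for tested peaks in an H3K27ac peak (green) and outside (purple), with TMM (left) and total-count scaling (right); dashed lines are medians. Inside, the medians are 0.85 and 1.60, outside they are -0.94 and -0.14, and the green histogram reaches further to the right than the purple one under both scalings.

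The peak with the highest fold lay at chr10:59974098-59974448, nearest to Anapc16, a subunit of the anaphase-promoting complex, and 22.3 kb from the start of Ddit4, whose product restrains mTORC1. Its level, in CPM of the TMM-scaled library, was 179, 95.1, 89.0 and 127 in the 4 Dex libraries, against 2.70, 6.03, 3.39 and 3.18 in the 4 vehicle libraries. No vehicle library came near any Dex library, and the log2 fold change was 4.94 ± 0.41 with TMM (adjusted p = 3.94e-26) and 5.68 ± 0.31 with total count (adjusted p = 5.30e-08). Adjusted p-values for GR are from the TMM fit unless marked. That fit shared the spread across peaks far more strongly (prior degrees of freedom 593, against 7.38 with total count), so the size of its smallest p-values depends on the scaling. Next came chr17:28518000-28518382, 12.5 kb from Armc12 and 31.9 kb from the start of Fkbp5, which encodes a co-chaperone that lowers the hormone affinity of GR. Its levels were 199, 159, 107 and 163 CPM in Dex cells and 4.05, 12.1, 2.26 and 8.47 CPM in vehicle cells, a log2 fold change of 4.60 ± 0.39 (adjusted p = 3.94e-26 with TMM and 7.74e-08 with total count). At chr19:23056835-23057211, 84.0 kb from the start of Klf9, a Krüppel-like factor gene, occupancy was 156, 111, 67.5 and 109 CPM in Dex cells and 5.40, 3.02, 3.96 and 6.35 CPM in vehicle cells (log2 4.52 ± 0.41, adjusted p = 1.39e-23). A peak at chr17:26535142-26535626 lay 25.1 kb from Ergic1, a gene of vesicle transport, and 26.7 kb from the start of Dusp1, a phosphatase that switches off MAP kinases. It had 360, 262, 179 and 251 CPM in Dex cells, against 10.8, 12.1, 14.1 and 19.1 CPM in vehicle cells (log2 4.18 ± 0.35, adjusted p = 3.94e-26). Distances say where a peak lies and not which gene it acts on.

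A peak at chr2:155052627-155053086, 1.6 kb from the pigment gene a, which encodes agouti signalling protein, had 137, 103, 91.1 and 168 CPM in Dex cells and 2.70, 9.05, 5.66 and 10.6 CPM in vehicle cells (log2 4.15 ± 0.38). Inside Zbtb16, which encodes the zinc-finger repressor PLZF, the peak at chr9:48723543-48724003 had 171, 168, 82.6 and 112 CPM in Dex cells, against 8.10, 8.05, 5.66 and 11.6 CPM in vehicle cells (log2 3.95 ± 0.37, adjusted p = 2.19e-21). All 4 Zbtb16 peaks that were tested rose, the other 3 by 2.55, 2.33 and 1.38 on the log2 scale, the last of which lost its call with median-of-ratios scaling (0.89), with DESeq2 (0.93), in the fit of all 15 GR libraries (1.16) and in batch 2 alone (1.03). The Sh3kbp1 peak, within a gene for an adaptor of receptor endocytosis, averaged 43.9 ± 14.7 CPM in Dex cells and 2.29 ± 1.72 CPM in vehicle cells (log2 3.94 ± 0.44), with 0 reads in vehicle replicate 1. At 28.9 kb from the start of Tsc22d3, whose product GILZ restrains inflammatory signalling, chrX:140513382-140513747 had 65.0, 46.7, 28.4 and 34.2 CPM in Dex cells and 8.10, 2.01, 1.70 and 1.06 CPM in vehicle cells (log2 3.88 ± 0.44, adjusted p = 8.81e-16). The remaining peaks among the 12 with the highest folds were nearest to Wee1, a kinase that holds back entry into mitosis (log2 3.87 ± 0.43), St3gal5, the synthase of ganglioside GM3 (log2 3.75 ± 0.37), and Klf13 (log2 3.74 ± 0.35), or lay at chr11:51916016-51916397 with no named gene within 50 kb (log2 3.78 ± 0.38). In all 12, every Dex library was above every vehicle library, which the choice of these peaks already required within each batch.

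**Figure D4:**
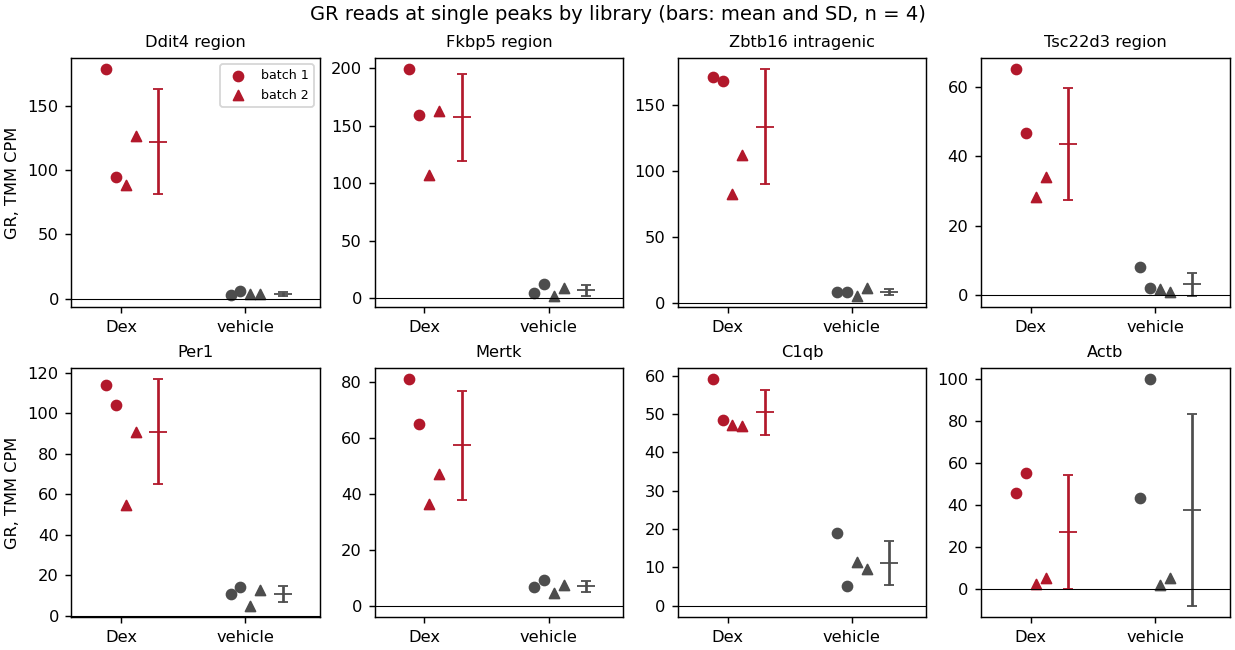
GR level in TMM-scaled CPM at 8 peaks in each library, Dex left and vehicle right; circles are batch 1, triangles batch 2, and bars the mean and SD of 4 libraries. At the first 7 peaks all Dex libraries lie above all vehicle libraries, while at the Actb peak both groups are high in batch 1 and close to 0 in batch 2.

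Among 30 glucocorticoid-response effector genes, 16 had a tested peak within 50 kb, and 13 of these (Ddit4, Dusp1, Fkbp5, Hif3a, Map3k6, Mt1, Nfkbia, Per1, Pik3r1, Sult1a1, Tnfaip3, Tsc22d3 and Txnip) had peaks that rose and none that fell. Peaks of Anxa1, Ccnd1 and Sgk1 did not pass. Of the 26 tested peaks of the 16 genes, 22 rose, against 34.6% of all tested peaks. Their median log2 fold change was 1.98 with TMM and 2.77 with total count, against 0.16 and 0.91 over all tested peaks. Of these 26 peaks 24 lay in an H3K27ac peak, a class in which 49.9% of tested peaks rose. This list and those below were chosen with earlier results of these data known. Hif3a, a hypoxia-pathway factor gene, had a peak of 202, 151, 117 and 126 CPM in Dex cells, against 17.6, 8.05, 10.7 and 10.6 CPM in vehicle cells (log2 3.65 ± 0.36, adjusted p = 3.11e-20). The intragenic Fkbp5 peak at chr17:28420136-28420595 had 198, 149, 103 and 121 CPM in Dex cells and 10.8, 12.1, 11.3 and 14.8 CPM in vehicle cells (log2 3.49 ± 0.35, adjusted p = 6.02e-19). Fkbp5 held a further risen peak (log2 2.42 ± 0.40), and all 4 tested peaks nearest to the neighbouring Armc12 rose. Tsc22d3 had 3 risen peaks, at log2 3.88, 1.90 and 1.72. Dusp1 had a peak 4.1 kb away (log2 2.42 ± 0.40) and another 1.1 kb away (log2 1.29 ± 0.42, adjusted p = 0.00543). The nearer one lost its call with median-of-ratios scaling, with scaling by the peaks of lowest count, with DESeq2 and in batch 2 alone. Ddit4 itself was nearest to a peak of 9.19 ± 1.00 CPM in Dex cells and 1.30 ± 1.25 CPM in vehicle cells (log2 2.70 ± 0.56). No tested peak had Zfp36, an mRNA-decay factor gene, as its nearest gene.

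The 28 glucocorticoid-response transcription factor genes had 9 members with tested peaks, and all 9 (Arid5b, Fos, Foxo3, Klf13, Klf2, Klf6, Klf9, Nfil3 and Zbtb16) had peaks that rose. Of 16 peaks 15 rose and none fell, against 34.6% and 26.4% of all tested peaks. Their median log2 fold change was 2.28 with TMM and 3.07 with total count, against 0.16 and 0.91. All 16 lay in H3K27ac peaks, a class in which 49.9% of tested peaks rose. Klf9 had 2 risen peaks 6.0 kb and 5.2 kb from its start, of which the first had 54.9, 49.6, 28.4 and 33.3 CPM in Dex cells, against 4.05, 2.01, 2.26 and 4.24 CPM in vehicle cells (log2 3.69 ± 0.43, adjusted p = 6.25e-15). Klf13 had 247, 218, 143 and 184 CPM in Dex cells and 10.8, 14.1, 13.6 and 19.1 CPM in vehicle cells at its intragenic peak. A peak 8.7 kb from Fos, a subunit of AP-1, averaged 17.1 ± 3.19 CPM in Dex cells and 2.48 ± 0.969 CPM in vehicle cells (log2 2.66 ± 0.45, adjusted p = 1.12e-07).

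Receptor rose at the clock genes that had tested peaks, of which Per1 and Nfil3 were already counted in the lists above. Of 18 genes 4 had tested peaks, and all 5 of those peaks rose, against 34.6% of all tested peaks. Their median was 2.50 with TMM and 3.25 with total count. All 5 lay in H3K27ac peaks, a class in which 49.9% of tested peaks rose. Per1, a repressor arm gene of the clock and a classical GR target, had 114, 104, 54.7 and 90.7 CPM in Dex cells, against 10.8, 14.1, 5.09 and 12.7 CPM in vehicle cells, 0.32 kb from its start (log2 3.12 ± 0.36, adjusted p = 7.68e-15). A further Per1 peak had a log2 fold change of 2.50 ± 0.35. Its paralogue Per2 averaged 20.8 ± 6.42 CPM in Dex cells and 2.96 ± 0.819 CPM in vehicle cells (log2 2.67 ± 0.43). The peaks of Nfil3, a repressor of clock output, and Ciart, another clock repressor, rose by 2.29 ± 0.41 and 2.29 ± 0.48 on the log2 scale.

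Phagocytosis and scavenger receptor genes included some with strong gains, but the share of their peaks that rose was near that of all tested peaks. Of 23 genes 14 had tested peaks. Peaks of 6 genes (C1qb, Cd163, Cd36, Lrp1, Mertk and Msr1) rose only, C1qc had peaks in both directions and 7 genes had no peak that passed, and 13 of 34 peaks rose and 1 fell by TMM, against 34.6% and 26.4% of all tested peaks. H3K27ac peaks held 30 of the 34, a class in which 49.9% of tested peaks rose. The list had a median log2 fold change of 0.39 with TMM, against 0.85 in that class. Mertk, a receptor for the engulfment of apoptotic cells, had 81.1, 65.0, 36.5 and 47.3 CPM in Dex cells, against 6.75, 9.05, 4.53 and 7.41 CPM in vehicle cells (log2 3.02 ± 0.38, adjusted p = 5.26e-13). Of its 4 tested peaks 2 rose by TMM and the others, at log2 0.58 and 0.50, did not pass, although the first of these passed by total count. C1qc and C1qb, neighbouring genes of the complement opsonin C1q, each had a promoter peak. The C1qc peak had 90.5, 69.7, 46.1 and 64.4 CPM in Dex cells and 6.75, 17.1, 13.0 and 15.9 CPM in vehicle cells (log2 2.29 ± 0.35), and the C1qb peak, over the sequence shown earlier, had 59.0, 48.4, 47.2 and 46.9 CPM in Dex cells and 18.9, 5.03, 11.3 and 9.53 CPM in vehicle cells (log2 2.19 ± 0.35). Cd163, the haemoglobin scavenger receptor gene, had 3 tested peaks 25.4, 30.9 and 28.4 kb away, which rose by 1.49, 1.18 and 1.04 on the log2 scale. The last of these lost its call when Dex replicate 1 or 4 or vehicle replicate 2, 3 or 4 was left out (log2 0.66 to 0.93). All 3 lost their calls with DESeq2 (1.03, 0.69 and 0.51), the first also in batch 2 alone (1.27), the second in batch 2 alone (0.98) and with median-of-ratios scaling (0.69), and the third in batch 1 alone (0.52) and with median-of-ratios scaling (0.55). Lrp1, an endocytic receptor gene, had a weakly covered peak of 23, 16, 12 and 16 reads in Dex cells and 0, 3, 2 and 2 reads in vehicle cells (log2 2.44 ± 0.55). All 4 tested Lrp1 peaks rose. The 1 peak of the list that fell by TMM was a second C1qc peak (log2 -0.90). In this list 14 of the 34 peaks were at least 4-fold higher in batch 1 than in batch 2 in both groups (means of CPM plus 1, a measure chosen after the data were seen).

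Inflammatory genes had tested peaks at 7 of 25 members. Peaks of 3 genes rose, 1 gene had both directions and 3 had none that passed. Of 15 peaks 5 rose and 1 fell by TMM, against 34.6% and 26.4% of all tested peaks, with medians of 0.07 with TMM and 0.79 with total count, against 0.16 and 0.91. In this list 13 peaks lay in an H3K27ac peak, a class in which 49.9% of tested peaks rose. At the promoter of Nlrp3, the inflammasome sensor gene, the peak had 13.4, 17.1, 12.9 and 9.64 CPM in Dex cells, against 5.40, 3.02, 3.39 and 0.00 CPM in vehicle cells (log2 2.11 ± 0.46, adjusted p = 4.05e-05). Peaks at the promoter of Cd14, the endotoxin co-receptor gene, and near Tlr2, a gene for a receptor of bacterial lipoproteins, and Ccl2, a monocyte chemokine gene, had log2 values of 1.31 ± 0.43, 1.11 ± 0.37 and 0.91 ± 0.36. The Cd14 call was lost without Dex replicate 2 (1.05) or vehicle replicate 2 (1.08), the Tlr2 call without vehicle replicate 2 (0.77), and the Ccl2 call without Dex replicate 1 or vehicle replicate 1, 2 or 4 (0.55 to 0.87). All 3 calls were lost with median-of-ratios scaling and with DESeq2. The peak that fell by TMM was a second Cd14 peak (log2 -0.90), and peaks of Ccl4, Ccl5 and Tlr4 did not pass. In this list 7 of the 15 peaks were at least 4-fold higher in batch 1 in both groups. The 2 interferon-response genes with a tested peak, Ifit3 and Isg15, had log2 values of -0.31 and -0.46 with TMM and 0.39 and 0.22 with total count, and neither passed under either scaling. Isg15 was called lower without vehicle replicate 1 (-0.91), with median-of-ratios scaling (-1.06) and with DESeq2 (-1.09). The Isg15 peak was at least 4-fold higher in batch 1 in both groups.

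Of 27 IL4-induced genes 8 had tested peaks, 5 with peaks that rose and 1 with a peak that fell, and 5 of 10 peaks rose and 1 fell by TMM, against 34.6% and 26.4% of all tested peaks (median 0.91 with TMM, 1.73 with total count). But 9 of these 10 peaks lay in an H3K27ac peak, a class in which 49.9% of tested peaks rose. The medians of that class, 0.85 with TMM and 1.60 with total count, were close to those of the list. Chil3, which encodes the chitinase-like protein Ym1, had 31.5, 44.9, 22.0 and 50.8 CPM in Dex cells, against 2.70, 8.05, 5.09 and 12.7 CPM in vehicle cells (log2 2.40 ± 0.38, adjusted p = 7.49e-09). Pparg, a lipid-sensing nuclear receptor gene, averaged 13.8 ± 6.57 CPM in Dex cells and 3.50 ± 1.58 CPM in vehicle cells at a peak 29.6 kb away (log2 1.79 ± 0.44), which did not pass in batch 2 alone. Ccl17, a chemokine gene, had a log2 fold change of 1.51 ± 0.38, and Atp6v0d2, a proton pump subunit gene, one of 1.15 ± 0.40 that was lost without Dex replicate 4 (0.90) or vehicle replicate 4 (0.78). Myc, a growth-promoting transcription factor gene, was the fifth gene with a risen peak (log2 1.00). The peak that fell by TMM was near Tfec, a transcription factor gene (log2 -1.10).

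Lipid metabolism genes had few risen peaks. Of 9 genes with tested peaks, 2 had peaks that rose only, 2 that fell only, and 1 both, with 3 of 23 peaks higher and 5 lower by TMM, against 34.6% and 26.4% of all tested peaks, and 0 lower by total count. Besides Pparg, the risen peaks were at Cd36, a fatty acid and oxidised lipid receptor gene (log2 1.34 ± 0.38, with overlapping libraries), and Plin2, a lipid droplet gene (log2 1.30 ± 0.38). Both were lost with median-of-ratios scaling, DESeq2 and batch 2 alone. At Lpl, the gene of lipoprotein lipase, the peak had 7.37, 13.6, 0.00 and 1.75 CPM in Dex cells, against 16.2, 25.1, 3.39 and 6.35 CPM in vehicle cells (log2 -1.27 ± 0.43, adjusted p = 0.00683), a call that total-count scaling did not make (log2 -0.63). The other falls by TMM were at a second Lpl peak, Plin2 (log2 -1.25 and -0.83) and Lipa, the lysosomal lipase gene (log2 -0.84). Of the 23 peaks 15 were at least 4-fold higher in batch 1 in both groups, the Lpl peak being higher in batch 1 as well.

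Genes of the receptor's own machinery and of macrophage identity showed no common direction. The 5 receptor, chaperone and cofactor genes with tested peaks had 2 of 12 peaks higher and 3 lower by TMM, against the same 34.6% and 26.4%. Ncoa1, a steroid receptor coactivator gene, had a peak that rose to 28.1, 24.8, 17.2 and 22.3 CPM in Dex cells, against 6.75, 6.03, 7.35 and 6.35 CPM in vehicle cells (log2 1.74 ± 0.37, adjusted p = 2.91e-05). 2 other Ncoa1 peaks fell by TMM (log2 -1.30 and -1.18). Ncoa3 of the same family had 0.98 ± 0.36 and lost its call without vehicle replicate 1, 2 or 3 (0.73 to 0.89). Hspa8 and Hsp90ab1, chaperone genes, had log2 values of -0.69 and -0.91 with TMM and -0.12 and -0.30 with total count. In this list 7 of the 12 peaks were at least 4-fold higher in batch 1 in both groups, these Hspa8 and Hsp90ab1 peaks among them. Hspa8 did not pass, but was called lower without vehicle replicate 1 (-1.23), with median-of-ratios scaling (-1.30) and with DESeq2 (-1.41). The Hsp90ab1 call (adjusted p = 0.0432 with TMM) was lost without Dex replicate 1, 3 or 4 or vehicle replicate 2 or 3 (-0.95 to -0.66). No tested peak was nearest to Nr3c1, the gene of the receptor itself. Of 34 peaks of 9 macrophage identity genes 2 rose and 4 fell by TMM, against 34.6% and 26.4% of all tested peaks, and 0 fell by total count. Itgam, an integrin gene, had a log2 value of 0.99 ± 0.38 and lost its call without Dex replicate 3 or vehicle replicate 1, 2 or 4 (0.72 to 0.93). Ctss, a lysosomal protease gene, and Adgre1, which encodes the macrophage surface protein F4/80, had -1.03 ± 0.38 and -1.11 ± 0.45. The Ctss call was lost without Dex replicate 2 (-0.97) or vehicle replicate 2 (-0.63), and the Adgre1 call without Dex replicate 1 or 3 or vehicle replicate 2 or 3 (-1.17 to -0.97).

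Identity and housekeeping peaks were mostly far higher in batch 1 than in batch 2. Actb had 45.6, 54.9, 2.14 and 5.26 CPM in Dex replicates 1 to 4, against 43.2, 99.6, 1.70 and 5.30 CPM in vehicle replicates 1 to 4, so that both groups were high in batch 1 and low in batch 2 (log2 -0.31 ± 0.37 with TMM, 0.36 with total count; adjusted p = 0.447). Eef1a1, a translation factor gene, had 48.9, 49.0, 0.00 and 0.00 CPM in Dex cells and 54.0, 75.4, 3.39 and 0.00 CPM in vehicle cells. B2m, of the MHC class I light chain, and Rplp0, a ribosomal protein gene, had log2 values of -0.52 and -0.19 with TMM and 0.13 and 0.41 with total count. None of the 14 tested peaks of the 4 housekeeping genes passed with TMM or total count. B2m was called lower without vehicle replicate 1 (-0.99) or 4 (-0.73), with median-of-ratios scaling (-1.10) and with DESeq2 (-1.11), and Eef1a1 without vehicle replicate 1 (-1.22) or 4 (-0.87), with median-of-ratios scaling (-1.35) and with DESeq2 (-1.45). All 14 peaks were at least 4-fold higher in batch 1 in both groups, as were 26 of the 34 identity peaks. Over all tested peaks 412 (15.0%) were higher in batch 1 to this degree, against 11 in batch 2. Of the 412, 365 (88.6%) lay in a gene or within 1 kb of its end, 0 rose with Dex and 39 fell by TMM. Over all tested peaks 50.3% lay in a gene or within 1 kb of its end, 34.6% rose and 26.4% fell by TMM. What sets these peaks apart was not tested.

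Lists of other cell types held few tested peaks. Fibroblast, lymphoid, mast cell and erythroid markers had none. The neutrophil genes S100a9 and Elane had log2 values of -0.59 and -0.80 with TMM and 0.09 and -0.18 with total count, and did not pass. Both peaks were at least 4-fold higher in batch 1 in both groups. Without vehicle replicate 1 Elane was called lower (-1.42), as it was without vehicle replicate 3 (-0.94) or 4 (-1.04), with median-of-ratios scaling (-1.41) and with DESeq2 (-1.44), and S100a9 was called lower with median-of-ratios scaling (-1.17). Among dendritic cell genes, Siglech had a peak at log2 0.95 ± 0.35, lost without Dex replicate 2 (0.88), and Xcr1 one at -1.14 ± 0.33, which did not pass by total count (log2 -0.28). The osteoclast genes Ctsk and Acp5, at whose peaks the libraries of the groups overlapped, had 0.96 ± 0.36 and 0.90 ± 0.37. The Ctsk call was lost without Dex replicate 2 or 4 or vehicle replicate 1 or 2 (0.64 to 0.87), and the Acp5 call without Dex replicate 1 or 4 or vehicle replicate 1, 2 or 4 (0.63 to 0.79). Calls at Siglech, Ctsk, Acp5, Atp6v0d2, Itgam and Ncoa3 were also lost with median-of-ratios scaling and with DESeq2.

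Peaks that fell by TMM lay mostly outside genes and outside H3K27ac peaks. Of the 726, 528 (72.7%) lay outside genes, against 49.7% of all tested peaks. The 12 with the lowest folds were all outside H3K27ac peaks, with log2 values of -2.45 to -1.64 by TMM and -1.50 to -0.67 by total count. The lowest was in Col4a6, a basement membrane collagen gene, with 1.34, 3.54, 6.97 and 7.89 CPM in Dex cells, against 13.5, 12.1, 22.1 and 66.7 CPM in vehicle cells (log2 -2.45 ± 0.38, adjusted p = 6.68e-09 with TMM; -1.50 with total count). The peak in Duxf3, a gene of the Dux repeat family, had 8.04, 8.86, 5.36 and 8.76 CPM in Dex cells and 18.9, 28.2, 23.8 and 43.4 CPM in vehicle cells (log2 -1.86 ± 0.35). Peaks nearest to Olfr1466, an odorant receptor gene, Zfp825, a zinc-finger gene, Sfi1, a centriole gene, and Them7 had log2 values of -1.82, -1.77, -1.76 and -1.72, and total-count values of -0.92, -0.89, -0.90 and -0.90. The Olfr1466 value did not pass by total count. The other 6, at chr15:21656451-21656532, chr5:15552507-15552665, chr3:3013322-3013424, chr1:85263885-85263973, chr2:144976062-144976154 and chr1:41917904-41917994, had no named gene within 50 kb, and of these only the one on chr3 passed by total count. In all 12, vehicle replicate 4, the library with the lowest TMM factor, had the highest level. Without it 804 peaks were lower by TMM and 41 by total count, and each of the 12 was still called lower by TMM, the one at chr1:41917904 with a log2 value of -1.02.

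H3K27ac was measured in separate libraries (3 Dex at 24 h and 3 vehicle with no time labelled, within a fit of 12), and it rose at many of the sites where GR rose. Of 59881 tested H3K27ac peaks 1734 were higher with Dex (2.90%) and 1405 lower (2.35%). Among the 888 that overlapped a GR peak that rose, 422 were higher (47.5%) and 1 was lower, with a median log2 fold change of 0.66, against 0.01 over all tested H3K27ac peaks. Those over GR peaks higher by total count alone numbered 295, of which 45 were higher (15.3%) and 0 lower. Over GR peaks called in neither direction 8 of 369 were higher and 5 lower, and over GR peaks lower by TMM 0 of 130 were higher and 2 lower, with a median of 0.05. H3K27ac libraries of the same replicate number deviated together, and with the replicate number as a block 651 of the 888 were higher (73.3%) and 15 lower, when 9.91% of all H3K27ac peaks were higher and 10.3% lower. GR peaks that rose overlapped 24.3% of all H3K27ac peaks that were higher with Dex in the unblocked fit.

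H3K27ac peaks with higher GR folds were called higher more often. Pairs of overlapping peaks with a risen GR peak were split into 4 equal groups by GR fold. The share with higher H3K27ac was 19.2% in the group of lowest folds, 34.3% and 57.9% in the middle ones and 76.5% in the highest, and the median H3K27ac log2 fold change was 0.32, 0.48, 0.89 and 1.46. Over all 1873 pairs the log2 fold changes of GR and H3K27ac had a Pearson r of 0.63 and a Spearman rho of 0.62, and over the 934 pairs with a risen GR peak r was 0.59. Pairs are not independent, since several GR peaks can share an H3K27ac peak. At the peak 84.0 kb from Klf9, H3K27ac averaged 83.8 ± 1.51 CPM in Dex cells and 2.34 ± 1.39 CPM in vehicle cells (SD, n = 3 each; log2 5.26 ± 0.42, adjusted p = 1.87e-05). At the Armc12 peak, 31.9 kb from the Fkbp5 start, it averaged 312 ± 9.26 CPM in Dex cells and 18.1 ± 7.24 CPM in vehicle cells (log2 4.13 ± 0.28), and in Zbtb16 34.2 ± 8.24 CPM in Dex cells and 1.96 ± 1.95 CPM in vehicle cells (log2 4.28 ± 0.53). H3K27ac moved less at the Ergic1 peak near Dusp1, which, with a GR log2 fold change of 4.18, lay in an H3K27ac peak that averaged 320 ± 65.1 CPM in Dex cells and 204 ± 11.8 CPM in vehicle cells (log2 0.65 ± 0.13, adjusted p = 0.0127). Among named genes whose GR peak rose, the H3K27ac difference missed the threshold of the unblocked fit at, among others, Nlrp3 (log2 0.54 ± 0.16), the 2 C1q promoters in 1 H3K27ac peak (0.57 ± 0.16), Lrp1 (log2 0.06 ± 0.09), Pparg (-0.14 ± 0.17), Cd14 (-0.03 ± 0.25), Tlr2 (0.15 ± 0.22) or Ccl2 (-0.12 ± 0.33). Nlrp3 and the C1q promoters missed it narrowly, with adjusted p of 0.065 and 0.060 by edgeR's F test. The fit with the replicate block called more H3K27ac peaks, and its values at single peaks are not given here. At Cd163 H3K27ac was higher with Dex and passed at all 3 peaks, by 3.32 ± 0.18, 2.54 ± 0.23 and 1.79 ± 0.18 on the log2 scale. At Lpl H3K27ac fell, with a log2 value of -1.01 ± 0.15 (adjusted p = 0.00209).

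**Figure D5:**
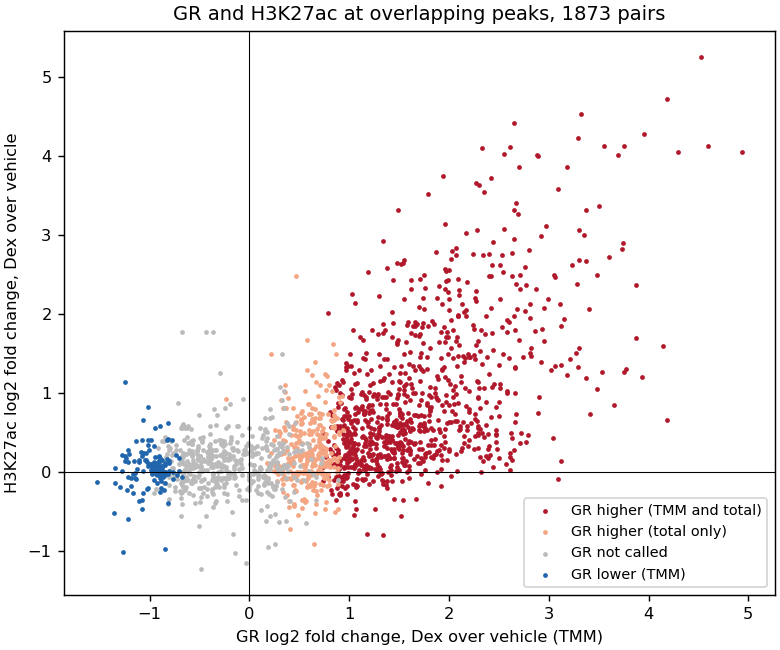
GR log2 fold change with TMM (horizontal) against H3K27ac log2 fold change (vertical), Dex over vehicle, for 1873 pairs of overlapping peaks, coloured by the call of the GR peak. The red points rise together to the right, while points with a GR value below 0 stay scattered around an H3K27ac value of 0.

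The 12 named peaks with the highest folds had log2 values of 3.52 to 5.48 in batch 1 and 3.21 to 5.09 in batch 2. They were chosen for their fold and for groups apart within each batch, so high values in both batches follow from the choice. In batch 1 alone 804 peaks were higher and 418 lower by TMM, and in batch 2 alone 494 were higher and 203 lower. By total count batch 1 gave 1089 higher and 12 lower, and batch 2 gave 493 higher and 0 lower. Of the 953 peaks called higher in the joint fit of the batches, 773 were also called in batch 1 alone and 493 in batch 2 alone. The fits of single batches use libraries of the joint fit and are not an independent check. The test of the difference between batches called 0 of 2753 peaks (0.00%) by edgeR, with 110 at an unadjusted p under 0.05 (45 with total count), and 0 by DESeq2, with 28 at an unadjusted p under 0.05. With 2 libraries per group and batch, differences between batches could be missed at this depth. Sh3kbp1, a peak with few vehicle reads, had log2 values of 5.48 in batch 1 and 3.21 in batch 2.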

How the data were processed

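GR and H3K27ac ChIP-seq were analysed from read counts per peak as the authors deposited them: raw counts, not normalized, for 8394 GR peaks and 63313 H3K27ac peaks. Per the submitters' processing notes the tools were fastp, Bowtie2, SAMtools, MACS2 and featureCounts and the build was mm10; their settings, and whether duplicates were removed, are not given in the sources used here. Chromatin for GR was crosslinked with 2 mM disuccinimidyl glutamate and then 1% formaldehyde, and libraries were amplified by 15 PCR cycles, per the labels' protocols, so counts need not be independent molecules. Vehicle samples were tied to the columns headed C because no other treatment was left for them. The deposited GR table marks 2296 peaks as filtered TRUE by a criterion not given in the sources used here, and all peaks were kept. The input sample was not analysed here.

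Peaks were tested with edgeR 4.0.16 (quasi-likelihood F test, R 4.3.3, limma 3.58.1) after filterByExpr by group, with batch as a covariate and Benjamini-Hochberg adjustment over all tested peaks at 0.05. TMM and total-count scaling are both given; levels (CPM) are counts over the TMM-scaled total, per megaread, standard errors are the log2 fold change divided by the root of F, and total counts were 900063 to 1981582 for GR and 7451304 to 15695771 for H3K27ac. H3K27ac was fitted over all 12 libraries with no block. Its same-numbered Dex and vehicle libraries deviated together (r 0.389, 0.474 and 0.360), and a fit with the replicate number as a block is printed beside the result. Same-numbered GR libraries did not (r -0.165, -0.113, 0.114 and -0.166). Differently numbered Dex and vehicle libraries of the same batch had r of -0.245, -0.309, -0.127 and -0.434. Taking out batch and treatment itself lowers r within a batch, so these values cannot settle whether GR libraries were paired. No 2 of the compared libraries agreed within sampling noise. The fit was also run on simulated data, with an outcome not given here. Few peaks were changed there, equally up and down, so that run cannot check the choice of scaling.

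A peak was given to the nearest named gene of the RefSeq annotation (GRCm38.p6) within 50 kb, which 80.1% of GR peaks had, and overlap meant at least 1 bp. Named peaks were the 12 highest and 12 lowest log2 fold changes among called peaks of at least median level with groups apart within each batch (1 per gene, predicted genes left out), up to 4 genes per list by smallest p, every tested peak of 10 fixed loci, and the 5 peaks with the most reads. Promoter sequences are RefSeq's. Members and lists were chosen with earlier results of these data known. Alternatives covered scaling, count filter, DESeq2 1.42.0, batch, replicate block, other libraries in the fit and each library left out. Exact permutation tests used scipy 1.17.1 and ignored batch.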

Additional observations from a re-analysis of the deposited data

Results flagged for a closer look

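Among the 186 groups of 4 values checked (library measures and named peaks), 8 had a library far from the other 3 of its group, measured by its gap over the range; chance marks about 1 group in 20. Dex replicate 4 had the highest total of the Dex libraries, 1904442 reads in peaks. At the Tsc22d3 peak with the highest fold, vehicle replicate 1 had 8.10 CPM, against 1.06 to 2.01 CPM in the other vehicle libraries. At the C1qb promoter Dex replicate 1 had 59.0 CPM, against 46.9 to 48.4 CPM in the other Dex libraries. Dex replicate 4 was the lowest Dex library at the Dusp1 peak 1.1 kb from the start, with 7.89 CPM against 13.4 to 14.5 CPM, and at the Itgam peak, with 9.20 CPM against 15.9 to 16.8 CPM. Vehicle replicate 4 was the highest vehicle library at chr3:3013322, with 64.6 CPM against 21.6 to 26.0 CPM, at Them7, with 30.7 CPM against 18.1 to 18.9 CPM, and at Olfr1466, with 76.2 CPM against 24.1 to 32.2 CPM. These 3 values carry that library's TMM factor, the lowest of the 8.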

How the results depend on the processing

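The count of peaks higher with Dex stayed within 1.5 times of 953 under most settings and left that range with median-of-ratios scaling (606), DESeq2 (501) and batch 2 alone (494), and with total-count scaling under no count filter (1837), all 15 GR libraries (1945) or batch 2 alone (493). The count of lower peaks, 726 with TMM, was 31 with total count, 1163 with median-of-ratios, 414 with no batch term, 418 and 203 in batch 1 and batch 2 alone, 426 when a log2 difference of 1 or more was also asked for and 1137 in a fit of all GR libraries but Cort replicate 4. With total-count scaling it was 15 with no count filter, 46 with the replicate block, 12 with no batch term, 12 and 0 in batch 1 and batch 2 alone, 23 with all 15 libraries, 25 for filtered TRUE peaks only and from 15 (without Dex replicate 3 or 4) to 41 (without vehicle replicate 4) with 1 library left out, the others giving 17, 28, 18, 21 and 31. The median log2 fold change, 0.16, was 0.91 with total count, -0.34 with median-of-ratios, 0.22 with total count without the 1% of peaks with the most reads, -0.11 scaled on the quartile of lowest counts, -0.17 with no filter, -0.33 with DESeq2, -0.13 with all 15 libraries, -0.14 without Cort replicate 4, 0.27 in batch 2 alone, 0.30 for filtered TRUE peaks and -0.078 (without vehicle replicate 4) to 0.18 with 1 library left out. The cause of these shifts was not tested. With each library left out, 772 to 911 peaks were higher and 583 to 878 lower by TMM. H3K27ac peaks higher at risen GR peaks numbered 422, 651 with the replicate block and 305 to 437 with each library left out. The difference in read share at H3K27ac, 3.86 points, was 3.23 to 4.41 points with each library left out, where 3 against 4 libraries cannot pass 0.05.

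The labels do not say whether GR replicate numbers pair the libraries, and the correlations given above do not settle it. A replicate block gave 965 higher and 719 lower peaks, and of the named peaks only the Hsp90ab1 call was lost. Directions turned with total count at Rplp0 (0.41), Ifit3 (0.39), Actb (0.36), Isg15 (0.22), B2m (0.13) and S100a9 (0.091), none of which passed. They also turned at Rplp0 with no batch term (0.086) and in batch 1 alone (0.23), and at Actb in batch 2 alone (0.40) and without vehicle replicate 2 (0.13), where the other libraries left out gave down to -0.77. Depth limits peaks outside the 84 with the most reads, which share 55958 to 145518 reads per library.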

Other observations

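Several genes outside the lists gathered more than 2 risen GR peaks; they were chosen after their values were seen. Anapc16 had 4 tested peaks, at log2 3.32, 4.94, 4.29 and 0.79 with TMM, and Armc12 had 4, at 3.76, 3.55, 4.60 and 4.18. Frmd4b, a scaffold gene, had 4 peaks inside the gene at log2 1.05, 2.33, 2.72 and 2.29, all in chromatin whose H3K27ac difference did not pass in the unblocked fit (log2 0.49). Irf2, an interferon regulatory factor gene, had 4 risen peaks of 6, at 2.30, 1.17, 2.09 and 2.15, and the other two, at 0.47 and 0.47, did not pass. Ninj2, a membrane protein gene, had 4 risen peaks of 5, between 1.51 and 2.77. Dock10, a gene for an activator of small GTPases, had 3 of 3, at 2.30, 2.26 and 2.19, of which the first lay in an H3K27ac peak that rose by 3.63 on the log2 scale.

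By level, 28.3% of tested GR peaks rose in the quartile of lowest mean level, 40.7% and 45.5% in the next ones and 24.0% in the highest, where the 84 peaks with the most reads lie. The deposited list marks 2044 of the tested peaks as filtered TRUE, of which 857 rose, and 709 as FALSE, of which 96 rose.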
